A study of Mus musculus with 5 samples.

Results

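The genes described here are 10 members of the major histocompatibility complex (MHC) class I pathway of the mouse, found by symbol in the count table of each library, out of 24970 genes in all. They are the classical heavy chain genes H2-K1 and H2-D1, the T region genes H2-T10, H2-T23, H2-T3 and H2-Bl, the Q region gene H2-Q5, the light chain gene B2m, the peptide transporter gene Tap1 and the regulator gene Nlrc5. They were chosen with their difference between the genotypes already known, so that difference is given as a description, with no p-value, and nothing is supported with how many of them pass a test. RNA was sequenced from the urothelium, the epithelium that lines the bladder, of 5 mice aged 10 weeks, with 1 library per mouse. The 2 wild types (WT 1 and WT 2) are labelled C57Bl/6. The 3 knockouts (KO 1 to KO 3) carried Krt5CreERT2, an inducible Cre recombinase under the promoter of the basal cell keratin gene Krt5, and Ncstnflox/flox, floxed alleles of the gamma-secretase subunit gene Ncstn. Recombination is thus limited to cells that expressed Krt5 and their descendants. The labels' strain entry for the knockouts gives only this genotype, and no label gives an MHC haplotype, so genotype, strain background, Cre and haplotype cannot be told apart in any comparison below.

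MHC class I molecules are made of a heavy chain and beta-2-microglobulin and carry short peptides from inside the cell to its surface, where CD8 T cells and natural killer cells read them. Peptides are cut by the proteasome, pumped into the endoplasmic reticulum by the TAP transporter, trimmed there and loaded with the help of chaperones. The heavy chain genes lie in the H2 complex on chromosome 17 and are among the most polymorphic genes of the mouse: inbred strains differ in their alleles and, in the Q and T regions, in which genes they have. The mm10 build, named in the submitters' processing notes, is the C57BL/6J genome. Whether reads of other alleles would align to it, and be counted for the right gene, was not tested. This holds for every class I and class II count and ratio below.

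Library sizes ran from 12608836 to 27188499 counts in genes, and 22.28% to 25.84% of tallied reads had no unique alignment. Ncstn stood at 144 and 130 CPM (counts scaled to a common library size) in the wild types and at 114, 117 and 123 CPM in the knockouts, lower in every knockout, counted over the whole gene and in tissue that also holds cells without Krt5. Which exon was floxed is not given in the labels. Summed urothelial markers (18 genes) stood at 15378 and 17511 CPM in the wild types and 24437, 24338 and 20844 CPM in the knockouts. Fibroblast markers (14 genes) summed to 16959 and 14997 CPM and to 8820, 10371 and 10602 CPM, above the urothelial sum only in WT 1. The tissue thus also held stroma, with a smaller sum in every knockout. In bulk tissue, fewer cells of a type and less RNA per cell cannot be told apart, and the part of cell composition in the differences below was not tested.

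Promoter sequence was at hand for 6 of the 10 genes (H2-K1, H2-D1, H2-T23, H2-T3, B2m and Tap1), as RefSeq windows of 300 bases on GRCm38.p6, from 250 bases before to 50 bases after the start of transcription. The 4 heavy chain windows are printed because these genes lie in 1 complex and their RNA differed in opposite directions. Sequences run 5′ to 3′ on the strand of the gene. Capitals mark matches, on either strand, to the interferon regulatory factor motif GAANNGAAA, the kappaB motif GGGNNTTCC, the X2 box core TGACG and the CCAAT box, and no matches overlapped. The windows lie at chr17:34000298-34000597 on the minus strand for H2-K1, chr17:35262844-35263143 on the plus strand for H2-D1, chr17:36032652-36032951 on the minus strand for H2-T23 and chr17:36190102-36190401 on the minus strand for H2-T3.
H2-K1: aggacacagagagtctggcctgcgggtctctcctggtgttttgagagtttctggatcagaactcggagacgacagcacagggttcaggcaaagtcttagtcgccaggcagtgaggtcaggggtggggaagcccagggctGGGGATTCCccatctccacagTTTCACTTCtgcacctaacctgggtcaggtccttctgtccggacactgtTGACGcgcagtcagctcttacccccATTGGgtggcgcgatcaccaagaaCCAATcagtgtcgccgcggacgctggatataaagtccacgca
H2-D1: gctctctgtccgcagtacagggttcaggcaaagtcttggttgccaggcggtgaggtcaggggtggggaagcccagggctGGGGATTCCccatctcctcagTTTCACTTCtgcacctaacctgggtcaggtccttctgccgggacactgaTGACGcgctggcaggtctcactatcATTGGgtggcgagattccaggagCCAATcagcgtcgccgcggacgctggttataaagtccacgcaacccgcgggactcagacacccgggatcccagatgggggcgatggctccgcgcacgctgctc
H2-T23: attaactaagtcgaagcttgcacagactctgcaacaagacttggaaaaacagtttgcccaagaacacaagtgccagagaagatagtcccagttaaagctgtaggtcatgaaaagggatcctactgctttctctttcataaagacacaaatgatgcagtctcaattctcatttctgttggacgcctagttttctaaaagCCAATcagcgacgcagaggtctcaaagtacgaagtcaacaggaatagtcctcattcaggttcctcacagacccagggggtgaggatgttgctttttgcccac
H2-T3: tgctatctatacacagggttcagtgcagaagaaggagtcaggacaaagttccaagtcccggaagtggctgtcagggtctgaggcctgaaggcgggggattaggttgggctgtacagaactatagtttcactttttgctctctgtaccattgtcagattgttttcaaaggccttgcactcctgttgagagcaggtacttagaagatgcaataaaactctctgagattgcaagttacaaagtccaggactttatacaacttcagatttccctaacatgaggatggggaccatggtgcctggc
The windows of the classical pair, H2-K1 and H2-D1, were alike in 88.3% of aligned bases (211 of 239) and held the same set of matches: 1 GAANNGAAA, 1 GGGNNTTCC, 1 TGACG and 2 CCAAT. H2-T23 held only 1 CCAAT and H2-T3 held none of the 4 motifs. The H2-T23 and H2-T3 windows were alike in 59.1% of aligned bases, no more than B2m with Tap1 (62.2%) or H2-T3 with B2m (59.9%). The B2m window held 2 TGACG and 1 CCAAT, and the Tap1 window 1 of each. Among 32851 such windows of 27025 mouse genes, GAANNGAAA was in 7.52%, GGGNNTTCC in 5.82%, TGACG in 20.8% and CCAAT in 37.4%. These matches describe letters in the reference, not binding. The reference letters may not be those of the knockouts.

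The 7 heavy chain genes differed between the genotypes in both directions, whereas the light chain, transporter and regulator genes overlapped. H2-D1, H2-T10, H2-T3 and H2-Bl were higher in the 3 knockouts, and H2-K1, H2-T23 and H2-Q5 were lower. These 7 also make up every member past an adjusted p of 0.05 (edgeR quasi-likelihood test, Benjamini-Hochberg adjustment over all genes), 4 higher and 3 lower. In the same test 19.7% of the 14779 genes tested passed, 9.64% as higher and 10% as lower. The groups did not overlap for 7 of the 10 genes, against 51% of all genes tested. A fitted fold over 4 was reached by 5 of the 10, against 1.81% of all. The genes were chosen on this contrast, so nothing is read from these counts.

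**Figure D1:**
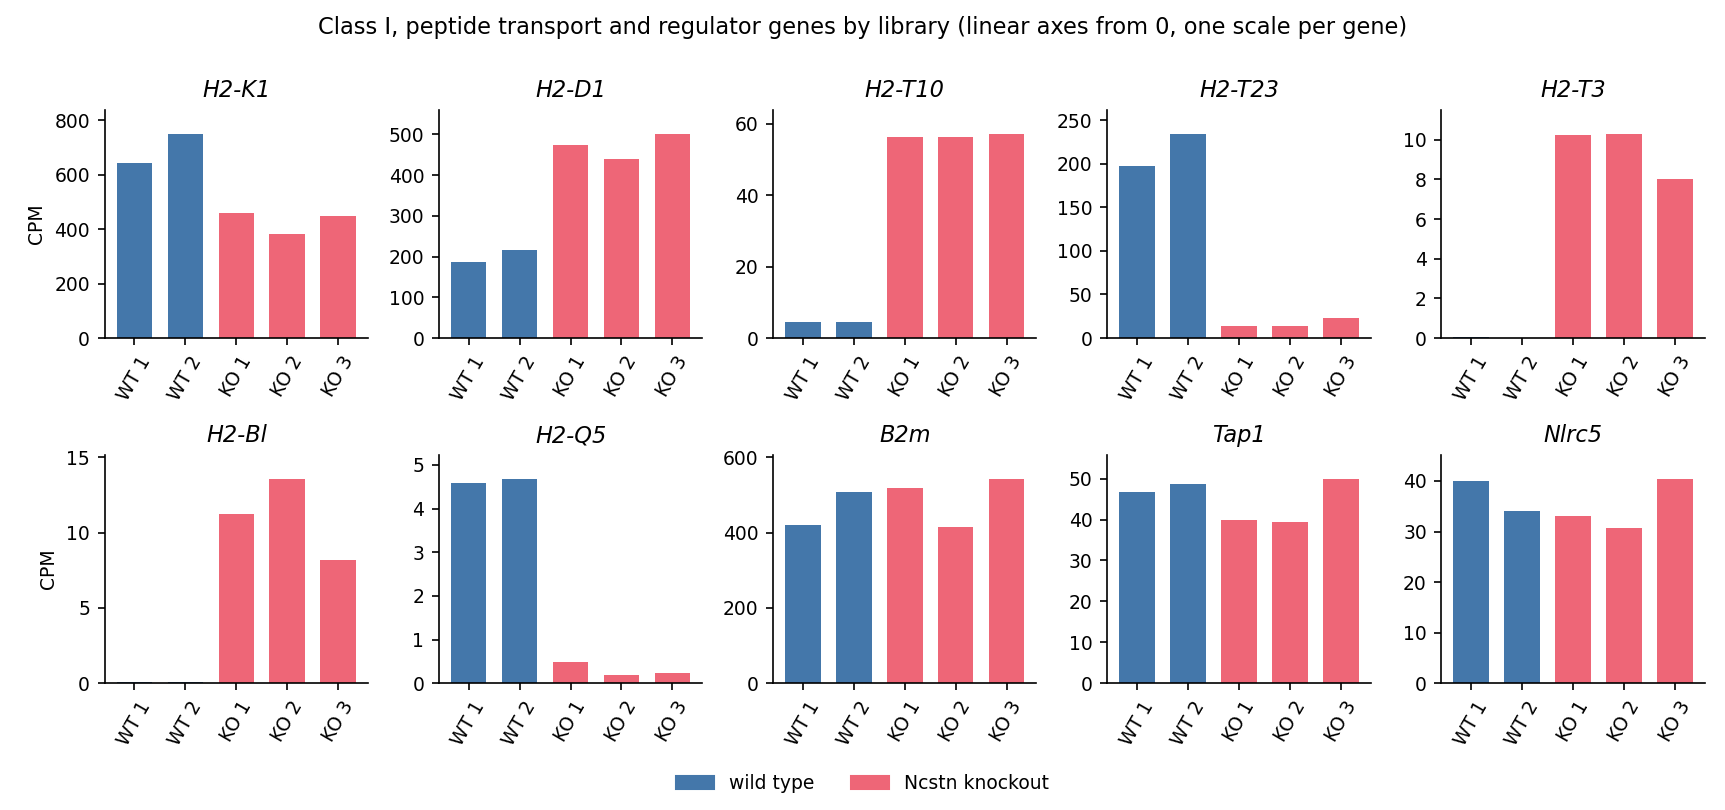
CPM (vertical axes, linear from 0, a separate scale for each gene) of the 10 genes in each library, with bars in blue for WT 1 and WT 2 and in red for KO 1 to KO 3. H2-K1, H2-T23 and H2-Q5 are lower and H2-D1, H2-T10, H2-T3 and H2-Bl higher in all 3 knockouts, while B2m, Tap1 and Nlrc5 overlap.

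H2-K1 and H2-D1 encode the K and D heavy chains, the classical molecules that present peptides to CD8 T cells in all nucleated cells. H2-K1 (chr17:33996017-34000347, minus strand, GRCm38) had 644 and 749.7 CPM in the wild types and 458, 382 and 449 CPM in the knockouts. All knockouts were below both wild types, with a log2 fold change of -0.70 ± 0.12 (SE, 2 against 3 mice), which is 1.62-fold lower. H2-D1 (chr17:35262730-35267499, plus strand) had 186 and 215 CPM in the wild types and 474, 439.8 and 501 CPM in the knockouts. Here all knockouts were above both wild types, with a log2 fold change of 1.23 ± 0.11, which is 2.35-fold higher. The ratio of H2-K1 to H2-D1 counts was 3.46 and 3.49 in the wild types against 0.967, 0.868 and 0.896 in the knockouts, so H2-K1 led in the wild types and H2-D1 in the knockouts. Their sum of 831 and 965 CPM in the wild types overlapped that of 932, 821 and 949 CPM in the knockouts. Of 50-base windows along the transcripts, 9.63% of H2-K1 and 12.8% of H2-D1 also occur in a gene elsewhere, most often in H2-Q10 and H2-Q1.

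H2-T23 encodes Qa-1, a nonclassical molecule that shows signal peptides of other class I chains to CD94-NKG2 receptors of natural killer cells. It lies at chr17:36029773-36032855 on the minus strand and had 197 and 234 CPM in the wild types but 14.003, 14.19 and 23.12 CPM in the knockouts. Both wild types lay far above all knockouts, with a log2 fold change of -3.68 ± 0.19, which is 12.8-fold lower in the knockouts. An antisense gene across it, A930015D03Rik (named for this overlap), had at most 5 counts in any library. H2-T10 encodes a ligand of some gamma-delta T cells that needs no peptide. It lies at chr17:36115876-36121465 on the minus strand and had 4.49 and 4.53 CPM in the wild types and 56.3, 56.4 and 57.1 CPM in the knockouts. The replicates were nearly level within each genotype, and the log2 fold change was 3.65 ± 0.12, which is 12.5-fold higher. GENCODE lists H2-T10 as a polymorphic pseudogene, a class for genes that are broken in the reference strain and intact in others. Of its windows, 50.4% occur in another gene when overlapping genes are counted: 33.4% occur elsewhere, 31.7% in H2-T22, and it overlaps Gm7030 on the same strand.

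The ratio of H2-T10 to H2-T23 counts was 0.0228 and 0.0194 in the wild types against 4.02, 3.97 and 2.47 in the knockouts. The order of this pair was thus reversed in every knockout.

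H2-T3 encodes the thymus leukaemia antigen, which binds CD8 alpha homodimers and is best known from thymocytes and gut epithelium. It lies at chr17:36185572-36190287 on the minus strand and had counts of 1 and 0 in the wild types against 272, 171 and 103 in the knockouts, or 0.0522, 0, 10.24, 10.29 and 8.02 CPM. The wild types were at or near 0 and every knockout was well above, with a ratio of 326.3 and a 95% interval of 58.3 to 12910 that covers counting error only. Only 0.926% of its windows occur elsewhere. H2-Bl, a T region gene first described in blastocysts, lies at chr17:36080115-36084223 on the minus strand and is also listed as a polymorphic pseudogene. Its counts were 1 and 1 in the wild types against 299, 225 and 105 in the knockouts, or 0.0522, 0.0697, 11.3, 13.5 and 8.18 CPM. The ratio was 188, with a 95% counting interval of 51.8 to 1556, and 9.55% of its windows occur elsewhere, mostly in H2-T23.

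H2-Q5 is a gene of the Q region, which encodes Qa nonclassical chains, and is listed as a polymorphic pseudogene at chr17:35394126-35397800 on the plus strand. It had counts of 88 and 67 in the wild types against 13, 3 and 3 in the knockouts, or 4.60, 4.67, 0.489, 0.180 and 0.234 CPM. All knockouts lay below both wild types, with a log2 fold change of -3.78 ± 0.38, which is 13.8-fold lower. Of its windows, 36.4% occur in genes elsewhere, 25.5% in H2-Q7.

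B2m encodes beta-2-microglobulin, the light chain of class I molecules. It lies outside the H2 complex, at chr2:122147686-122153083 on the plus strand, and had 421 and 507 CPM in the wild types and 520.2, 415 and 542 CPM in the knockouts. The groups overlapped, with a log2 fold change of 0.09 ± 0.14. Tap1 encodes one chain of the TAP peptide transporter and lies inside the H2 complex, at chr17:34187553-34197225 on the plus strand. It had 46.7 and 48.7 CPM in the wild types and 39.8, 39.5 and 49.8 CPM in the knockouts, with KO 3 above both wild types and a log2 fold change of -0.15 ± 0.12. Nlrc5 encodes the transactivator that drives class I promoters through their X boxes. It lies on chromosome 8 and had 40.0 and 34.1 CPM in the wild types and 33.1, 30.8 and 40.3 CPM in the knockouts, again overlapping, with a log2 fold change of -0.10 ± 0.13. B2m, Tap1 and Nlrc5 each overlap a gene on the other strand, and the strand setting of the counting is not given.

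Divided by exon length (CPM per kilobase of exon, RPKM), levels can be set roughly side by side between genes. The length was not reduced for sequence shared with other genes, whose reads may go uncounted. Shared windows made up 50.4% for H2-T10 and 36.4% for H2-Q5 but 0.926% for H2-T3 and 0 for B2m, and their effect on the order was not tested. In the wild types the order of mean RPKM was B2m (539.7), H2-K1 (237), H2-D1 (77.8), H2-T23 (74.6), Tap1 (8.71), Nlrc5 (4.36), H2-Q5 (2.91), H2-T10 (1.32), H2-Bl (0.0362) and H2-T3 (0.00957). H2-D1 (72.2 and 83.4 RPKM) and H2-T23 (68.2 and 81.0 RPKM) overlapped there, so their order is not resolved, nor is that of H2-Bl and H2-T3 with 1 count or none per library. In the knockouts the order was B2m (573), H2-D1 (183), H2-K1 (146), H2-T10 (16.6), Tap1 (7.86), H2-Bl (6.53), H2-T23 (5.92), Nlrc5 (4.09), H2-T3 (3.49) and H2-Q5 (0.189). B2m, H2-D1, H2-K1, H2-T10 and H2-Q5 did not overlap their neighbours in that order. Tap1, H2-Bl and H2-T23 overlapped each other, and so did Nlrc5 and H2-T3. H2-T23 therefore overlapped H2-D1 in the wild types, and Tap1 and H2-Bl in the knockouts.

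Summed over the 7 heavy chain genes, the pool came to 1037 and 1208 CPM in the wild types and 1024, 916 and 1046 CPM in the knockouts, with overlapping groups. Per B2m CPM, the sum was 2.46 and 2.38 in the wild types against 1.97, 2.21 and 1.93 in the knockouts, lower in every knockout. H2-K1 held 62.2% and 62.1% of heavy chain CPM in the wild types against 44.7%, 41.7% and 42.9% in the knockouts. H2-D1 held 17.9% and 17.8% of it in the wild types against 46.3%, 48.0% and 47.9% in the knockouts. The share of H2-T23 was 19.0% and 19.4% in the wild types against 1.37%, 1.55% and 2.21% in the knockouts, and that of H2-T10 was 0.433% and 0.375% against 5.50%, 6.15% and 5.46%. The makeup of this 7-gene sum thus differed between the genotypes by far more than within them, while its size overlapped. The 7 genes were chosen on this contrast, so nothing is read from that difference. Other class I genes, among them H2-Q4 with 61.6 to 111 CPM, are not in the sum, so the shares are not those of all heavy chains.

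**Figure D2:**
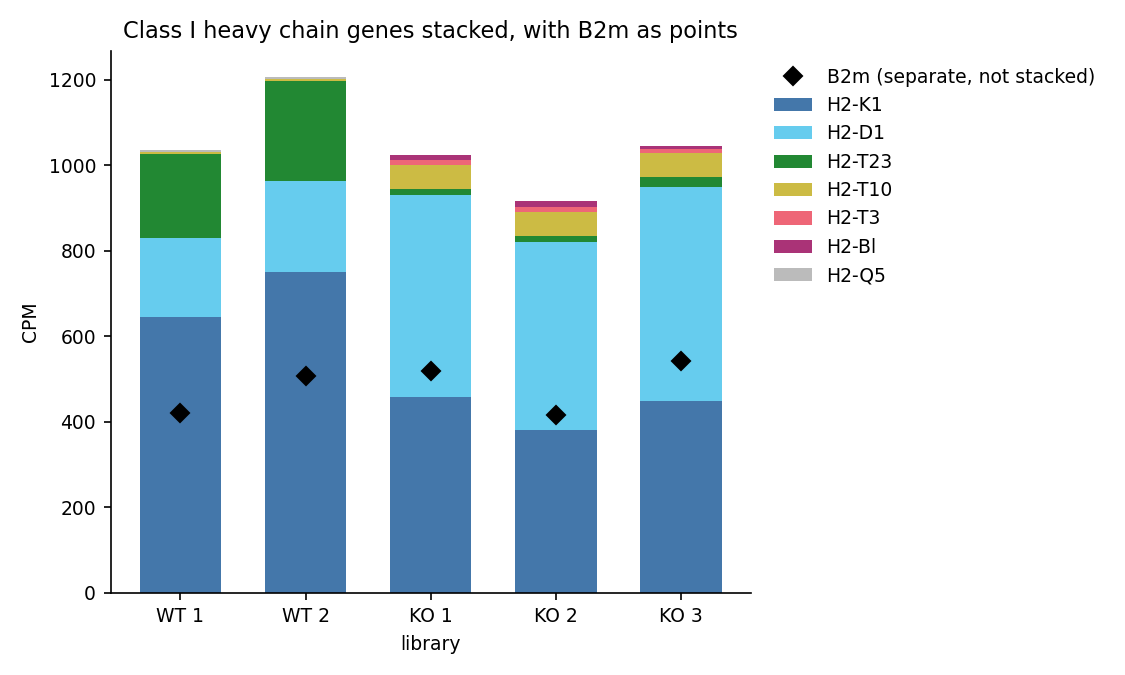
CPM of the 7 heavy chain genes stacked for each library (linear axis from 0), with B2m as a separate black diamond that is not part of the stack. The stacks reach 916 to 1208 CPM in all libraries, while the H2-T23 layer is 19.0% and 19.4% of the stack in the wild types and 1.37% to 2.21% in the knockouts.

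The members were then set in the order of the H2 complex (chr17:33974659-37483552, from H2-K2 to H2-M2), a span chosen after the values were seen. Of its 194 genes in the table, 123 were tested, and 32 were higher and 15 lower in the edgeR test (38.2%, against 19.7% of all genes tested). The 20 tested class I family genes, the 7 heavy chain members among them, counted 10 higher and 5 lower, with 11 over 4-fold, and nothing is read from this either, since the members were chosen on the contrast. Of the 95 tested genes that are neither class I nor class II, 22 were higher and 4 lower (27.4%, against 19.7% of all genes, 9.64% higher and 10% lower). Of the 95, 4 (4.21%) were over 4-fold, against 1.81% of all genes. Those over 4-fold had 0 to 6 counts per wild type and passed the filter only through the knockouts. The span was also chosen late, so nothing is read from these shares. The median size of the log2 fold change of the 95 was 0.24, against 0.23 for all genes tested. Within the T region, 9 of the 10 class I genes tested and both other genes tested had a fitted fold over 4. The members chosen on this contrast are among the 9, and genes with almost no wild-type count passed the filter only through the knockouts, so nothing is read from this count. The other genes are 2410017I17Rik, with counts of 1 and 1 against 109, 100 and 33, and Gm6623, with counts of 1 and 0 against 35, 19 and 20. Their ratios were 72.3 (95% counting interval 19.8 to 600.6) and 44.2 (7.70 to 1770).

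Elsewhere in the complex, single genes had no count in either wild type. The predicted gene Gm8801 had counts of 0 and 0 in the wild types against 78, 57 and 41 in the knockouts, at least 35.1-fold higher against a floor of 3 counts over the group. H2-Ea-ps, the class II E alpha gene, had counts of 0 and 0 in the wild types against 7, 14 and 6 in the knockouts, at least 5.38-fold higher by the same floor. It was below the filter on low counts and was not tested. As background, C57BL/6 and other mice of the H2-b haplotype do not transcribe this gene because its promoter is deleted, whereas mice of several other haplotypes do. The 4 genes of this and the preceding paragraph that are no class I genes were picked after their values were seen.

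**Figure D3:**
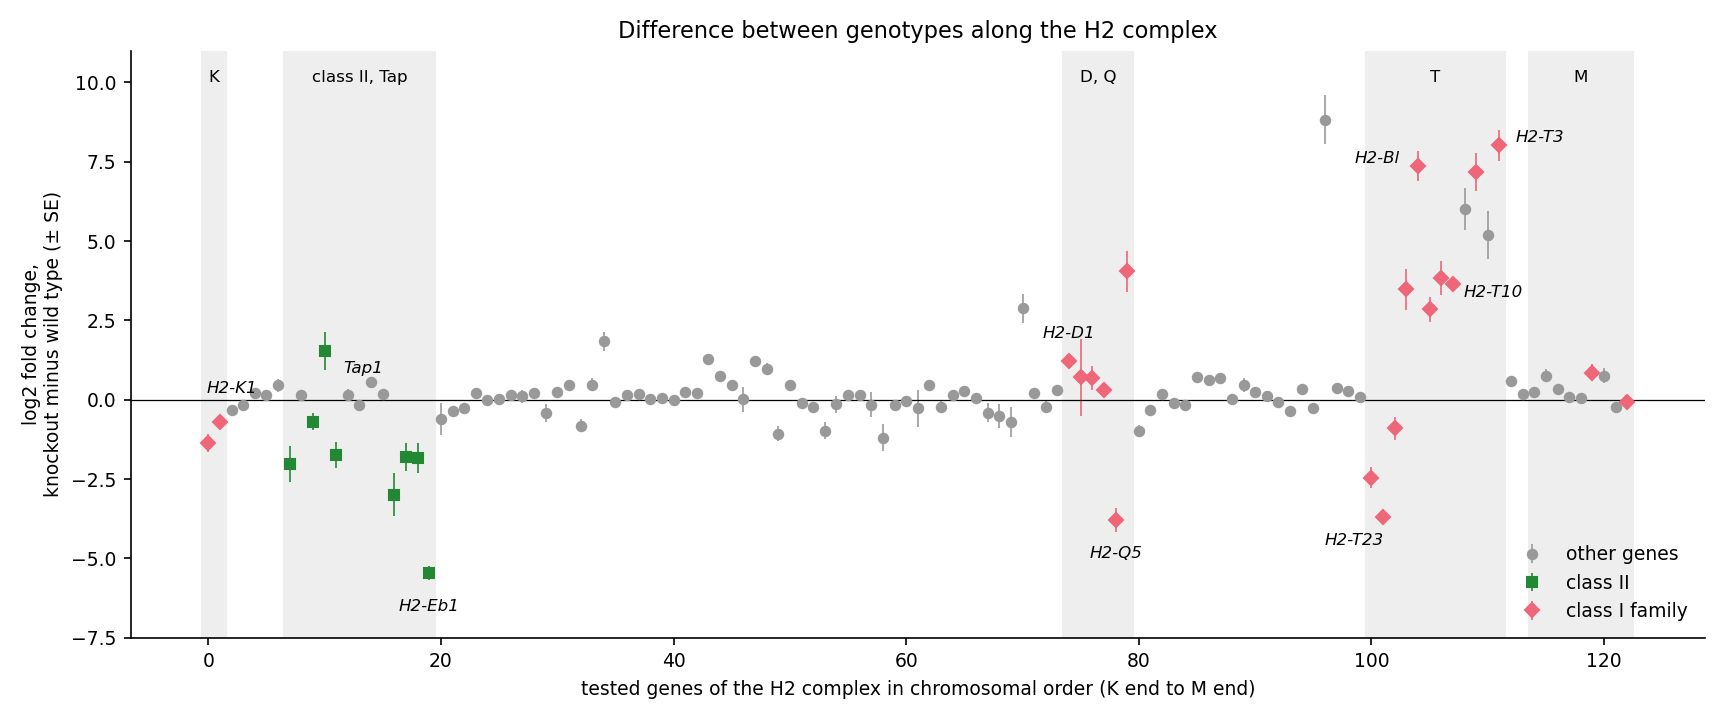
Log2 fold change of the knockouts against the wild types (points, with standard error bars) for the 123 tested genes of the H2 complex in chromosomal order from the K end to the M end, with class I family genes as red diamonds, class II genes as green squares and other genes as grey circles. Class I genes of the T segment reach far above and below 0, whereas most grey circles lie near it; values of genes with almost no wild-type count, such as H2-T3, depend on the prior count of the fit.

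Beyond the members, 37 other class I heavy chain genes from a fixed list of 42 were in the table, and 19 of them passed the filter. In the edgeR quasi-likelihood test, 5 rose, 5 fell and 9 did not pass, whereas 19.7% of all genes tested passed. The median log2 fold change was -0.03, against 0.01 for all genes tested. Gm8909, a class I-like predicted gene of the T region, rose from counts of 0 and 1 to 123, 86 and 81, a ratio of 173.3 (95% counting interval 30.9 to 6870; edgeR adjusted p = 6.37e-05). Gm7030 and Gm11127 are also T region class I genes. Gm7030 had counts of 3 and 1 against 43, 27 and 28, a fitted 14.2-fold rise (edgeR adjusted p = 0.00141). Gm11127 had counts of 3 and 1 against 27, 34 and 15, a fitted 11.1-fold rise (edgeR adjusted p = 0.00555). Of their windows, 60.8% and 67.0% occur in other genes. H2-Q10, whose product is secreted, mainly by liver, rose from counts of 2 and 1 to 36, 20 and 30 (ratio 17.1, interval 5.67 to 84.7; edgeR adjusted p = 0.0026). Gm8909, Gm7030, Gm11127 and H2-Q10 had 0 to 3 counts per wild type and passed the filter only through the knockouts. Their fitted values depend on the prior count, and nothing is read from the number that rose. With a mean above 5 CPM required, 3 genes of the list passed, all lower.

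Among those that fell was H2-T24, the T region neighbour of H2-T23. It had 12.3 and 7.81 CPM in the wild types and 2.11, 1.02 and 2.41 CPM in the knockouts (log2 fold change -2.45 ± 0.32, edgeR adjusted p = 0.000893). Mill2, a class I-like gene outside the H2 complex, fell by 0.98 on the log2 scale (edgeR adjusted p = 0.00816). The other 4 that passed, named after their values were seen, were Azgp1 (-1.25), H2-K2 (-1.35), Mr1 (-0.39) and H2-M5 (0.86, edgeR adjusted p = 0.0493), on the log2 scale. The count of 10 was lower without WT 1 or WT 2, as was that over all genes tested. H2-Q10, Gm11127, Mill2, Azgp1, Mr1 and H2-M5 lost the call without WT 1, and Gm11127, Azgp1, H2-K2, Mr1 and H2-M5 lost it without WT 2. H2-M5 lost its call in 9 of 14 alternatives.

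Several relatives of the members did not pass the edgeR test. H2-Q4, the most abundant other Q gene, had 61.6 and 69.4 CPM in the wild types and 63.4, 70.7 and 111 CPM in the knockouts (log2 fold change 0.31, adjusted p = 0.304), a broad overlap with KO 3 highest. H2-T22, the near copy of H2-T10, had 2.51 and 2.09 CPM in the wild types and 1.32, 0.782 and 1.64 CPM in the knockouts. Its log2 fold change was -0.90 (edgeR adjusted p = 0.105, and 0.0375 without KO 3), the opposite sign to H2-T10. Of the H2-T22 windows, 34.7% occur elsewhere, 31.25% in H2-T10, and whether reads of the pair were told apart was not tested. H2-M3, which presents N-formylated peptides of bacteria, had 9.87 and 11.8 CPM in the wild types and 10.61, 10.16 and 10.04 CPM in the knockouts (log2 fold change -0.07, edgeR adjusted p = 0.788). H2-Q6 and H2-Q7 were listed at 0 in all 5 libraries, and 35.0% and 26.4% of their windows occur in other genes. Whether they are silent or their reads were not counted was not tested.

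The machinery that cuts, carries and loads peptides was followed by a list of its own. Of 26 supply and loading genes other than Tap1, 4 rose, 1 fell and 21 did not pass the edgeR test. Over all genes tested 19.7% passed, so nothing is read from this count about the list. The median log2 fold change was 0.16, with 23 of 26 values above 0. Calr, the lectin chaperone calreticulin of the loading complex, had 262 and 274 CPM in the wild types and 527, 503 and 443 CPM in the knockouts. It rose 1.83-fold (log2 fold change 0.88 ± 0.11, edgeR adjusted p = 0.000818), with no overlap. The cytosolic aminopeptidase gene Npepps rose 1.35-fold (adjusted p = 0.0175), the translocon gene Sec61a1 rose 1.26-fold (adjusted p = 0.0299) and Psmb8, an interferon-induced proteasome subunit gene, rose 1.46-fold (adjusted p = 0.0471), all by edgeR. Lnpep, the endosomal aminopeptidase IRAP, fell by 0.64 on the log2 scale (edgeR adjusted p = 0.028). Calr kept its call without each single library. Without KO 2 it was the only one of the 5 left, and without WT 1, WT 2 or KO 1 there were 2. Psmb8 lost its call in 9 of 15 alternatives.

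Tap2, the partner chain of Tap1, had 55.1 and 63.6 CPM in the wild types and 62.8, 61.2 and 77.5 CPM in the knockouts, an overlap (log2 fold change 0.18, edgeR adjusted p = 0.341). Tapbp, the tapasin that bridges TAP and the heavy chain, had 153 and 157 CPM in the wild types and 162, 168 and 164 CPM in the knockouts (log2 fold change 0.09, edgeR adjusted p = 0.493). Psmb9 (0.16), Psmb10 (0.24) and the trimming peptidase gene Erap1 (0.03, all log2 fold changes) did not pass either. Psmb8, Psmb9 and Psmb10 encode the catalytic subunits that replace those of Psmb5, Psmb6 and Psmb7 in the immunoproteasome. Their summed CPM over that of the constitutive 3 was 0.345 and 0.353 in the wild types against 0.377, 0.366 and 0.493 in the knockouts. All knockouts lay above both wild types, by 0.23 on the log2 scale (exact two-sided permutation p = 0.3, where 10 splits allow no less than 0.1), and by 0.09 without KO 3. Of 16 genes of the constitutive proteasome and its activator, Psmb2 (0.35) and Psme3 (0.32, log2 fold changes) rose and 14 did not pass. The share past the threshold over all genes tested was 19.7%. Without KO 1 or KO 2 none of the 16 passed the edgeR test (3 and 4 at an unadjusted p under 0.05), without WT 1 there was 1, which was lower and neither Psmb2 nor Psme3, and without WT 2 there were 5, all higher.

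**Figure D4:**
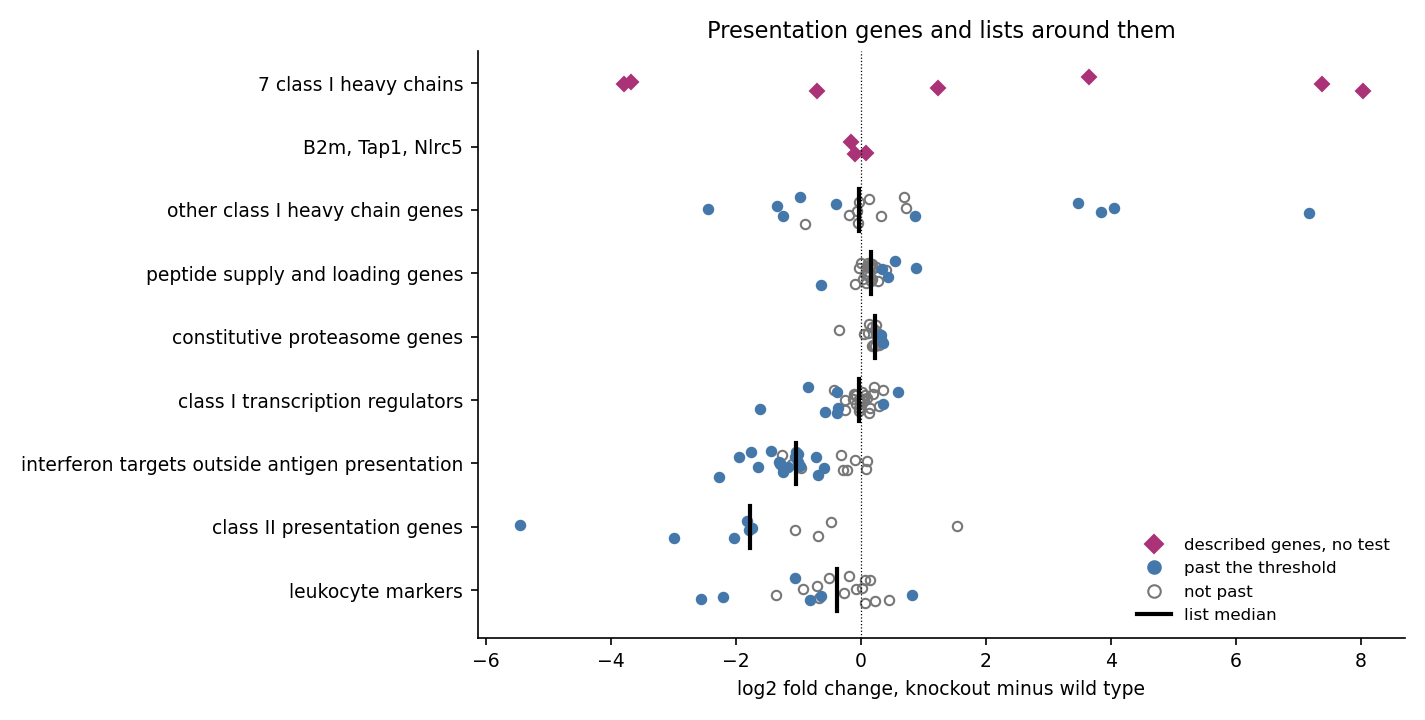
Log2 fold change of the knockouts against the wild types (horizontal axis) for the 10 genes (purple diamonds) and for each tested gene of 7 lists (filled blue, past an edgeR adjusted p of 0.05; open grey, not past), with list medians as black bars. The heavy chains, chosen on this contrast, lie on both sides of 0, loading genes lie around a median of 0.16 and interferon targets around a median of -1.05; the 2 rightmost diamonds are H2-Bl and H2-T3, whose fitted values depend on the prior count.

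Some regulators of class I transcription differed, in both directions. Of 33 genes tested, 2 rose, 6 fell and 25 did not pass the edgeR test, with a median log2 fold change of -0.03. Over all genes tested 19.7% passed, so nothing is read from this count about regulators as a list. Irf7, an interferon-induced transcription factor gene, had 16.6 and 21.3 CPM in the wild types and 9.15, 9.86 and 12.6 CPM in the knockouts, with no overlap (log2 fold change -0.85, edgeR adjusted p = 0.00887). Ezh2, the methyltransferase of the Polycomb complex that can silence class I genes, rose from 31.8 and 27.7 CPM to 47.8, 47.9 and 38.9 CPM (log2 fold change 0.59, edgeR adjusted p = 0.0104). Rfx5, a DNA-binding subunit of the X box complex, had 53.8 and 52.6 CPM in the wild types and 41.8, 38.0 and 43.4 CPM in the knockouts. It fell by 0.38 on the log2 scale (edgeR adjusted p = 0.0265). Stat2 (-0.38) and Irf9 (-0.58), the partners of the type I interferon factor, fell and the NF-kappaB subunit gene Rela (0.35) rose, again as log2 fold changes. The largest fall was that of Ciita, the class II transactivator gene (named after its values were seen), by 1.62 on the log2 scale (edgeR adjusted p = 0.0413). Irf1 (0.15, edgeR adjusted p = 0.357) did not pass. The count of 8 was 1 when WT 1 was left out, 2 when KO 1 or KO 2 was, and 11 when KO 3 was. Without WT 2 it was 0 by edgeR, with 7 at an unadjusted p under 0.05.

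Most interferon targets outside antigen presentation fell. Of 28 tested, 19 fell, 9 did not pass and none rose by edgeR (0 higher genes had an unadjusted p under 0.05, and DESeq2 and limma-voom called none), with a median log2 fold change of -1.05. Over all genes tested 10% passed as lower and 9.64% as higher. The list overlaps a set known from earlier work on these libraries to be lower and is no independent evidence of direction. Ifit3, which binds foreign RNA with its partner Ifit1, had 16.1 and 20.8 CPM in the wild types and 3.31, 2.41 and 6.07 CPM in the knockouts. It fell by 2.27 on the log2 scale (edgeR adjusted p = 0.000858), with no overlap. Rsad2 (-1.95), Ifit1 (-1.65), Gbp3 (-1.29), Oasl2 (-1.24) and Irgm2 (-1.17) fell as well, as log2 fold changes. The count of 19 was lower without WT 1 or WT 2, where 1 wild type was left and fewer of all genes tested passed too.

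Class II genes, which serve dendritic cells, macrophages and B cells, were counted in the same libraries. The list of 11, called class II genes here, also holds Cd74 and Ctss, which encode no class II chain. Of 10 tested, 6 fell and 4 did not pass the edgeR test, and none rose (1 higher gene, H2-DMb2, had an unadjusted p under 0.05, DESeq2 and limma-voom called none, and 1 was called higher with no filter on low counts), with a median log2 fold change of -1.77. Over all genes tested 10% passed as lower and 9.64% as higher. H2-Eb1, the E beta chain gene, had 77.2 and 95.5 CPM in the wild types and 1.36, 2.04 and 2.88 CPM in the knockouts, 43.9-fold lower (log2 fold change -5.46 ± 0.21, edgeR adjusted p = 7.39e-07). It kept its call in all 15 alternatives, none of which tested how reads of other alleles align. H2-Ab1 had 67.3 and 82.5 CPM in the wild types and 10.31, 14.5 and 42.1 CPM in the knockouts, so KO 3 stood between the wild types and the other knockouts (log2 fold change -1.80, edgeR adjusted p = 0.0177). H2-Aa (-1.82), H2-Ob (-3.00), H2-DMb1 (-1.74) and H2-Oa (-2.03, log2 fold changes) fell too. The count of 6 was lower without WT 1 or WT 2, as was that over all genes tested. Of the list, 9 passed when KO 3 was left out, 4 with a robust fit and 3 by DESeq2. H2-Ab1 and H2-Aa lost their calls with a robust fit and by DESeq2, and H2-Oa by DESeq2. Leaving out KO 2 gave 4. Summed CPM of the 11 listed genes was 459 and 547 in the wild types against 86.0, 115 and 330.1 in the knockouts. A large part of it was Cd74 (named after its values were seen). Cd74 had 172 and 185 CPM in the wild types and 37.0, 50.9 and 173 CPM in the knockouts, an overlap.

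Leukocytes, which carry much class I and class II RNA, were followed by 30 markers, of which 20 were tested. In the edgeR test 5 fell, 1 rose and 14 did not pass, with a median log2 fold change of -0.39. Over all genes tested 10% passed as lower and 9.64% as higher. Flt3 (-2.56), Itgax (-2.21) and Cx3cr1 (-1.05), genes of dendritic cells and macrophages, fell, as did Lyz2 (-0.82) and Tyrobp (-0.64), whereas Cd14 (0.82) rose, all as log2 fold changes. Other macrophage markers, named after their values were seen, did not pass: Adgre1 (-0.68), Csf1r (-0.08), Cd68 (0.06), Mrc1 (0.15) and Itgam (0.23). Of the 20 tested markers, 13 had a log2 fold change below 0 and 7 above. The 30 markers summed to 329 and 356 CPM in the wild types and 201, 291 and 331 CPM in the knockouts, which overlapped, and the 10 markers not tested had too few counts to pass the filter. The count of 6 was 1 without WT 1 or WT 2, where only Cd14 passed and all 5 falls lost their call. Leaving out KO 1 gave 3 and leaving out KO 3 gave 9. KO 1, with the lowest leukocyte sum, had 474 CPM of H2-D1, 56.3 of H2-T10, 10.24 of H2-T3, 11.3 of H2-Bl, 458 of H2-K1, 14.003 of H2-T23 and 0.489 of H2-Q5. KO 3, with a sum within the range of the wild types, had 501, 57.1, 8.02, 8.18, 449, 23.1 and 0.234 CPM of the same genes. H2-T23 was higher in KO 3 than in KO 1, and H2-Bl was lower. The part of leukocyte RNA in the values of the members was not tested.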

How the data were processed

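Per the labels' protocols, the urothelium was freed from the muscularis propria by dissection, and TRI-Reagent RNA of the frozen, crushed tissue went into an Illumina TruSeq kit. The values the authors deposited are raw gene counts, 1 table per library, and the submitters' processing notes name HISAT2 2.1.0, HTSeq 0.11.1, DESeq2 and build mm10. Read length, annotation and strand setting are not given in the sources used. The 5 summary entries were left out.

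Of the 24970 genes, 14779 passed filterByExpr at a minimum count of 10 and a minimum total of 15. They were scaled by TMM and tested with the edgeR quasi-likelihood test and Benjamini-Hochberg adjustment at 0.05 (R 4.3.3, edgeR 4.0.16, limma 3.58.1, DESeq2 1.42.0). The test was tried on simulated data first. CPM are counts scaled by these factors, ± marks the standard error, and a log2 fold change is the knockouts minus the wild types. Each library was taken as 1 mouse. Positions, exon lengths and 50-base windows come from GENCODE vM21 on GRCm38, and promoters from RefSeq. Counting error intervals are 95%, and the floor for a group at 0 is 3 counts.

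The members and the gene lists were chosen with earlier results of these data known. Genes named are the 10 members, up to 6 of each list with the smallest p among those past the threshold, and 14 loading, class I and regulator genes whatever their test. Others are said to have been named after their values were seen. Some genes under this rule are not reported here. Alternatives were DESeq2, limma-voom, a robust fit, other scalings and filters, a replicate block, leaving out ribosomal and nuclear RNA entries and leaving out each library. Over all genes tested, fewer passed without WT 1, WT 2, KO 1 or KO 2, and more without KO 3. A list count that moved the same way is not particular to that list.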

Additional observations from a re-analysis of the deposited data

How the results depend on the processing

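Every one of the 10 genes kept the sign of its log2 fold change in all alternatives except B2m (-0.05 to 0.21) and Nlrc5 (-0.23 to 0.02), whose groups overlapped. Ranges were -0.81 to -0.60 for H2-K1, 1.13 to 1.32 for H2-D1, 3.60 to 3.65 for H2-T10, -3.95 to -3.54 for H2-T23, -4.45 to -3.54 for H2-Q5 and -0.28 to -0.10 for Tap1. Those of H2-T3 (7.33 to 10.39) and H2-Bl (6.93 to 7.54) rest on 1 and 2 wild-type counts. H2-Q5 was not tested when a mean above 5 CPM was required.

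Leaving out 1 library at a time gave 715 to 3989 changed genes in all, 4 to 11 other class I genes, 1 to 5 loading genes, 0 to 5 constitutive proteasome genes, 0 to 11 regulators, 10 to 22 interferon targets, 1 to 9 class II genes, 1 to 9 leukocyte markers and a log2 proteasome subunit ratio of 0.09 to 0.31. That ratio was 0.08 as a median of pairwise ratios. With a mean above 5 CPM required, 3 other class I genes, 3 loading genes, 3 class II genes and 0 constitutive proteasome genes passed (5 of these at an unadjusted p under 0.05). Constitutive proteasome genes counted 0 with upper-quartile scaling (5 unadjusted), 1 with no scaling and 5 with no filter. Class II genes counted 10 with no filter (9 lower and 1 higher) and 3 by DESeq2. Same-numbered deviations correlated at -0.06 and 0.05. The deviations of 2 wild types from their mean mirror each other, so these values cannot show whether the replicate numbers pair the mice. A replicate block gave 4637 changed genes, 6 constitutive proteasome genes and 12 leukocyte markers. The cause was not tested for any of these. With 2 against 3 mice, small differences in loading genes are not resolved.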
